A study of Homo sapiens with 36 samples.

Results

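Dense clusters of GATA2 sites are stretches of the genome where sites bound by the transcription factor GATA2 follow each other closely. Sites were the merged peaks of 28 CUT&Tag libraries on chromosomes 1 to 22 and X, joined where they overlapped by at least 1 bp. Sites with a peak in at least 2 libraries were chained where the gap to the next site was at most 12500 bp, and chains of 4 or more sites were called clusters. Of 17277 sites, 3615 had a peak in only 1 library, and the other 13662 formed 9956 chains. The clusters were 286 of these chains (2.87%) and held 1372 sites, 10.04% of the sites in chains. The clusters were chosen by the presence of peaks in these same libraries, so occupancy at the 1372 sites is described with no test, and tests used clusters rebuilt from libraries outside each comparison.

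The cells were HUDEP-2, an immortalized line of human erythroid progenitors. Wild-type cells and GATA2-low cells, whose genotype label is GATA2+/-, received an empty lentiviral vector. GATA2-low cells also received HA-GATA2, which is GATA2 with an HA tag, or HA-GATA2(T354M), the same protein with a zinc finger mutation. All cells were infected with lentivirus, sorted for GFP and grown with erythropoietin, stem cell factor, doxycycline and dexamethasone. An in-house antibody against GATA2 was used on the 4 kinds of cells and a commercial antibody against HA on the 3 kinds of GATA2-low cells, which gave 7 groups of 4 libraries. All groups come from 1 cell line, the labels name no separate cultures or clones, and p-values therefore measure only the spread between libraries, which may be technical. In the anti-GATA2 group with GATA2-low empty-vector cells, replicate 1 carries the genotype label wild-type although it is titled GATA2-low. The title was followed, and its 1823 peaks lay below the 1914 to 3648 peaks of the other 3 libraries of that group and the 6555 to 9121 of the wild-type group. The 8 IgG control libraries were not analysed here.

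GATA2 is a zinc finger protein that recognises the DNA core GATA and acts in blood stem cells, progenitors and mast cells. In erythroid cells it shares many sites with GATA1, which takes its place as the cells mature, and both work with partners such as TAL1, LMO2 and FOG proteins. Many genes of blood cell identity are controlled by several such sites spread over their introns and flanks, of which the locus control region of the beta-globin genes and the intergenic enhancers upstream of MYB are textbook cases. CUT&Tag brings a transposase to the antibody's target, and the DNA fragments cut there are sequenced. A missing peak says that a library's list holds none there, not that no GATA2 is bound.

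Sequence could be read only from a RefSeq table of promoter windows. Of 22131 listed promoter windows, 105 lay wholly inside a cluster site. The 6 below belong to genes of the clusters described in the text, with the most libraries at their site, and windows that overlapped one already chosen were skipped. H2AC15 and H2BC15 face each other, for example, and share most of their window. Each run is the 250 bases before the start on the strand of the gene, from RefSeq on GRCh38.p14, 5′ to 3′, and capitals mark a GATA motif on either strand, which was AGATAA as well as its variant AGATAG, and likewise TGATAA as well as its variant TGATAG.
H2AC15 (chr6:27838376-27838625, minus strand): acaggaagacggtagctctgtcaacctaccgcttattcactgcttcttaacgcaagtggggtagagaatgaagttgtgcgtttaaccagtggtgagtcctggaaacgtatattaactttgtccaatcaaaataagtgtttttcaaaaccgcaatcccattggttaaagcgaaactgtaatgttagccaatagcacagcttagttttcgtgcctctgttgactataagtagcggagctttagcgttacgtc
FOXO3 (chr6:108559575-108559824, plus strand): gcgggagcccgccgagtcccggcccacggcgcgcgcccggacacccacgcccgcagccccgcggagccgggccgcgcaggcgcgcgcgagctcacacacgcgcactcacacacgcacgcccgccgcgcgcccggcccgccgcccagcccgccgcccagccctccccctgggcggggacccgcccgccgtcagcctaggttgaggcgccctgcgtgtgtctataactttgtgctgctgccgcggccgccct
CPOX (chr3:98593612-98593861, minus strand): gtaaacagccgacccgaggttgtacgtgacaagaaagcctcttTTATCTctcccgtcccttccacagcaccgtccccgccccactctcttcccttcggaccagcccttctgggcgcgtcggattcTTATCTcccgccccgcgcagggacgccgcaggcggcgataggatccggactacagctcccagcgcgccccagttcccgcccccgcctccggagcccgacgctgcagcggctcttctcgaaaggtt
GYPB (chr4:144019381-144019630, minus strand): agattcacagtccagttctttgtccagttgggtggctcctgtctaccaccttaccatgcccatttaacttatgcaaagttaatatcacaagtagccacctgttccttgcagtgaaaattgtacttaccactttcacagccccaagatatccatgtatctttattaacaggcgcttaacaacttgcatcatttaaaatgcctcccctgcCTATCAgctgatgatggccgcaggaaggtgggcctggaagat
H2AC13 (chr6:27807923-27808172, plus strand): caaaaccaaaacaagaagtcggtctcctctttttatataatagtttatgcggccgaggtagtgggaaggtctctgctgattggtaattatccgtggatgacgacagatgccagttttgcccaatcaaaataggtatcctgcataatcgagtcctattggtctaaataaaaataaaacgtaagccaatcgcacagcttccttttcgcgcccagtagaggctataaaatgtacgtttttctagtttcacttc
H2BC3 (chr6:26043714-26043963, minus strand): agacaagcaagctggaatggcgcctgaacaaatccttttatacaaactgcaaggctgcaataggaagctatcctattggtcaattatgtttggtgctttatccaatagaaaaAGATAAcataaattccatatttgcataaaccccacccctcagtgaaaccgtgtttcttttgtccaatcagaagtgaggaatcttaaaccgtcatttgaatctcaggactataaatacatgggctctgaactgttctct
The sites over H2AC15 and FOXO3 had a peak in 24 and 23 of the 28 libraries, those over CPOX and GYPB in 20, that over H2AC13 in 18 and that over H2BC3 in 17. The window of CPOX holds 2 motifs, those of GYPB and H2BC3 hold 1, and those of H2AC15, FOXO3 and H2AC13 hold none of these letters. Such a motif was present in 23 of the 105 windows inside cluster sites (21.9%), in 96 of 382 windows inside single sites (25.1%) and in 3948 of all 22131 windows (17.8%). The share inside cluster sites thus lay between the other 2, and a match is a description of sequence only.

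Most clusters were small. Of the 286, 162 had 4 sites, 67 had 5, 33 had 6, 16 had 7 and 8 had 8 or more, up to 15. Cluster spans ran from 3056 to 63617 bp with a median of 18952 bp, and the median gap between neighbouring sites was 3187 bp. At the threshold, the largest gap that was joined measured 12496 bp and the smallest that was not 12509 bp. There were 491 chains of 3 sites just below the limit, and 158 member sites had a peak in exactly 2 libraries.

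**Figure D1:**
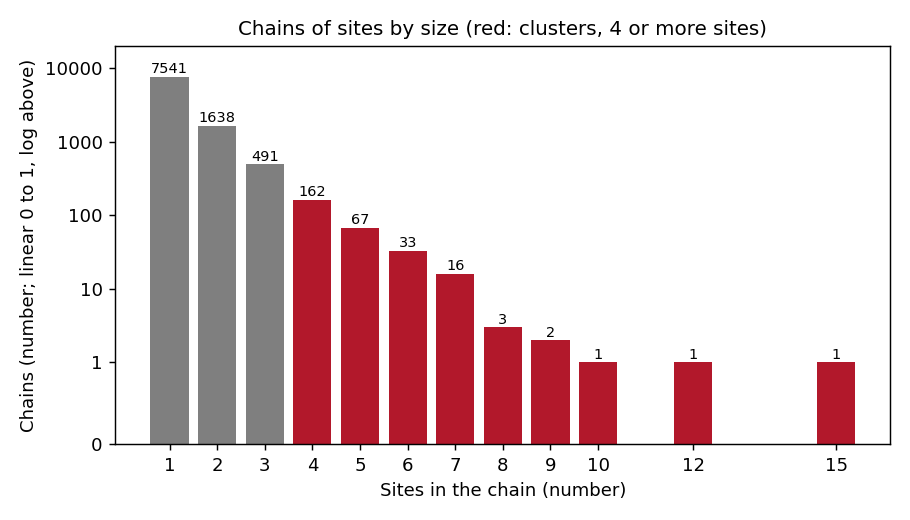
Number of chains (vertical axis, linear from 0 to 1 and logarithmic above) by the number of sites in the chain (horizontal axis). Grey bars are chains of 1 to 3 sites and red bars the clusters, from 162 chains of 4 sites to 1 chain of 15.

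Cluster sites were wider and shared by more libraries than isolated ones. Their median width was 562 bp, against 506 bp in chains of 3, 495 bp in pairs and 450.0 bp for single sites. They had a peak in a median of 8 libraries against 6 for single sites, and 13.4% of them had a peak in at least 20 libraries against 5.82%. Sharing between libraries is part of the rule, so these values describe the members and support nothing. The share within 1 kb of a listed gene start was 16.4% (225 of 1372 sites), beside 16.8% for single sites, and 66.3% lay in the body of a protein-coding gene against 58.1%. Of the clusters, 169 overlapped 1 protein-coding gene, 72 overlapped several and 45 none, and 156 held no site near a listed start. Chromosome 6 had the most clusters, 33, and chromosome 8 the highest share of its sites in clusters, 16.6%, while the share was 3.51% on chromosome 13 and 3.73% on chromosome 21.

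At the clusters, wild-type empty-vector cells held a peak at 55.5%, 54.5%, 67.6% and 64.7% of the 1372 sites in their 4 anti-GATA2 libraries. GATA2-low empty-vector cells held one at 19.4%, 21.5%, 24.9% and 35.5%. With HA-GATA2 the anti-GATA2 libraries reached 58.8%, 79.2%, 85.8% and 82.3%. The wild-type and GATA2-low empty-vector libraries did not overlap, and 3 of the 4 HA-GATA2 libraries lay above every wild-type one. With HA-GATA2(T354M) the anti-GATA2 values were 43.4%, 28.8%, 49.0% and 54.3%, so that replicate 2 lay within the range of the GATA2-low empty-vector libraries and the other 3 above it. The anti-HA libraries gave 36.7%, 41.5%, 49.8% and 19.3% for HA-GATA2 and 5.39%, 7.00%, 9.99% and 8.82% for HA-GATA2(T354M). Of the GATA2-low empty-vector cells, which carry no HA tag, 2 of the 4 anti-HA libraries had a peak at 1 cluster site each (0.0729%) and the others had none.

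**Figure D2:**
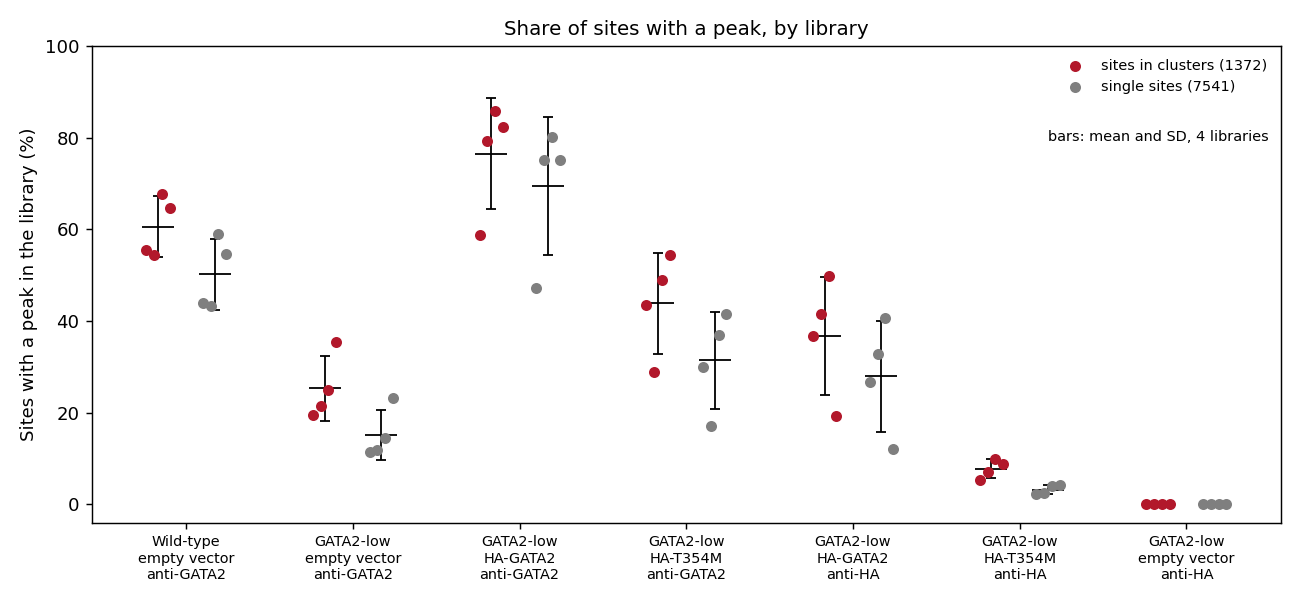
Share of sites with a peak in each library (vertical axis, percent) by group (horizontal axis), with 1 point per library and bars for the mean and SD of 4 libraries. Red points are the 1372 cluster sites and grey points the 7541 single sites, and red lies above grey in each of the 24 libraries other than the empty-vector anti-HA ones.

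Single sites, the chains of 1, ran lower in each of those 24 libraries. Their mean share was 50.2% ± 7.79 (SD, n = 4) in wild-type cells against 60.6% ± 6.58 at clusters, and 15.2% ± 5.45 against 25.3% ± 7.16 in GATA2-low empty-vector cells. For HA-GATA2(T354M) with anti-HA it was 3.18% ± 1.00 against 7.80% ± 2.02. Clusters thus took 10.4% to 11.7% of the peaks of a wild-type list, 13.5% to 15.7% of a GATA2-low empty-vector list and 16.7% to 20.2% of a T354M anti-HA list. Ranked within each list by the authors' −log10 q, cluster peaks had a median percentile of 51.9 to 63.0 and single-site peaks 43.7 to 51.6, with the cluster peaks higher in each of these 24 lists.

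Counts of clusters with at least 4 sites occupied at once differed more between groups than the site share. Of the 286 clusters, 162 have exactly 4 sites, so such a count falls faster than the site share when occupancy drops. What the site shares alone would give was not computed, and the counts are a description. In wild-type cells, 64, 72, 118 and 103 clusters had at least 4 of their sites occupied in the same library. In GATA2-low empty-vector cells these counts were 2, 1, 5 and 21, and the same cells still had at least 1 occupied site in 185 to 248 of the 286 clusters. With HA-GATA2 the anti-GATA2 counts of clusters with 4 or more occupied sites were 74, 174, 209 and 190, with HA-GATA2(T354M) 30, 11, 43 and 64. With anti-HA they were 20, 25, 47 and 3 for HA-GATA2 and 0, 0, 1 and 1 for HA-GATA2(T354M). Most clusters thus held 1 to 3 occupied sites in a GATA2-low empty-vector library.

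The strongest wild-type site was usually among those kept in the most GATA2-low empty-vector libraries. In 254 clusters the sites differed among themselves in how many GATA2-low empty-vector libraries had a peak. In 235 of these (92.5%), the site with the highest mean wild-type percentile was also the one, or among those, with the most such libraries. Ties were counted, and the share for a site taken at random was not computed. Both measures also rise with peak strength, so this is a description. A site present in all 8 libraries of the wild-type and GATA2-low empty-vector groups occurred in 162 clusters, a site present in all 4 of the first and none of the second in 114, both kinds in 60 and neither in 70. Of the 286 clusters, 32 had no peak in any GATA2-low empty-vector library, 2 none in any wild-type library and 149 none in any T354M anti-HA library.

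Clusters rebuilt by the same rule from the 20 libraries outside each comparison gave tests of the group differences. These 20 still hold the same cells with the other antibody, such as the 4 HA-GATA2 anti-HA lists where HA-GATA2 is compared with empty vector by anti-GATA2, so members could enter through the group where they are high. Clusters built with no list of the cells compared (12 or 16 libraries, an alternative chosen after seeing the data) are given after the main values. For wild-type against GATA2-low empty-vector cells these were 1090 sites in 229 clusters, and occupancy was 60.6% ± 6.10 (SD, n = 4) against 26.7% ± 7.65, a difference of 33.9 percentage points (exact two-sided permutation p = 0.0286, the smallest that 4 against 4 allows, adjusted p = 0.0476 over 5 comparisons). HA-GATA2 stood at 76.5% ± 7.39 against 30.5% ± 8.62 for empty vector in GATA2-low cells, a difference of 45.97 points (exact adjusted p = 0.0476). HA-GATA2(T354M) stood at 44.6% ± 10.95 against 26.02% ± 7.28, and this difference of 18.6 points did not pass (exact adjusted p = 0.0571). These 3 comparisons share the GATA2-low empty-vector libraries. HA-GATA2 exceeded HA-GATA2(T354M) by 21.8 points with anti-GATA2, 76.8% against 54.95%, which did not pass (exact adjusted p = 0.0571). With anti-HA the difference was 29.2 points, 36.7% ± 12.7 against 7.52% ± 1.86 (exact adjusted p = 0.0476). With no list of the cells compared, the 5 differences were 33.9, 44.1, 18.55, 19.15 and 31.7 points in the same order, with the same exact adjusted p as the main values.

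Occupancy at rebuilt clusters relative to rebuilt single sites also differed between groups. The ratio of the 2 shares was 1.22 in wild-type and 1.52 in GATA2-low empty-vector cells, a log2 difference of -0.32 (exact adjusted p = 0.0357, groups without overlap). It was 1.06 with HA-GATA2 against 1.41 with empty vector (log2 difference -0.40, exact adjusted p = 0.0357), and 1.06 against 1.25 for HA-GATA2 against HA-GATA2(T354M) with anti-GATA2 (-0.25, exact adjusted p = 0.0357). For HA-GATA2(T354M) against empty vector the ratios were 1.46 and 1.71, which did not pass (-0.24, exact adjusted p = 0.0571). With anti-HA the ratio was 1.36 for HA-GATA2 and 2.36 for HA-GATA2(T354M) (-0.79, exact adjusted p = 0.0357). With no list of the cells compared, the HA-GATA2 against HA-GATA2(T354M) difference by anti-GATA2 was -0.16 and did not pass (exact adjusted p = 0.0571), and the others stayed on their side of the threshold. In each comparison the group with fewer peaks had the higher ratio.

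These differences move with list length. When every list of a comparison was cut to its strongest peaks, as many as the shortest list held (1823 in the comparisons with empty vector, 2779 for HA-GATA2 against T354M, 426 with anti-HA), the occupancy difference was -0.73 points for wild-type, -2.66 for HA-GATA2 and 0.908 for HA-GATA2(T354M), each against empty vector. It was -3.28 for HA-GATA2 against T354M and 0.0570 with anti-HA. At equal length the groups thus lay within 3.28 points of each other, the 3 negative values turned the direction, and the wild-type (exact adjusted p = 0.179) and anti-HA (0.914) differences no longer passed while the other 3 did (0.0476 each). The log2 differences of the ratio were then -0.073 for wild-type (0.143), -0.17 for HA-GATA2 (0.0476) and 0.10 for HA-GATA2(T354M) (0.0476) against empty vector, -0.17 for HA-GATA2 against T354M (0.0476) and -0.054 with anti-HA (0.743), with the exact adjusted p in parentheses. The lowest local background that the peak caller's values imply, which grows with sequencing depth, was 0.222 to 0.302 fragments in the wild-type and 0.153 to 0.213 in the GATA2-low empty-vector lists. With anti-HA it was 0.375 to 0.438 for HA-GATA2 and 0.356 to 0.411 for HA-GATA2(T354M), ranges that overlap. The HA-GATA2 and T354M anti-GATA2 lists gave whole fragments at no more than 9.003% of their peaks, against all peaks in the other lists, so they carry another scaling, and the part of depth and scaling in the differences was not tested. Without the library whose genotype label reads wild-type, the occupancy differences against empty vector were 31.8 points for wild-type, 43.6 for HA-GATA2 and 16.6 for HA-GATA2(T354M), where 3 against 4 libraries cannot give a p below 0.0571.

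Counted site by site, clusters did not stand out. A peak in all 4 wild-type libraries and in no GATA2-low empty-vector one occurred at 151 of the 1060 cluster sites with a peak in either group (14.2%), beside 13.7% of all sites and 16.1% of single sites. For HA-GATA2 over empty vector the count was 309 of 1267 (24.4%, beside 23.8% of all sites). For HA-GATA2(T354M) over empty vector it was 50 of 880 (5.68%, beside 5.87%). HA-GATA2 over HA-GATA2(T354M) gave 117 of 1291 with anti-GATA2 (9.06%, beside 10.2%) and 120 of 780 with anti-HA (15.4%, beside 13.6%). No cluster site showed any of the 5 reverse patterns, beside 0.0179%, 0.0%, 0.0394%, 0.0344% and 0.0% of all sites in the same order. Since these libraries chose the sites, the shares are read only against the background, and they lie near it.

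Within clusters, sites near gene starts and sites away from them were filled in a different order across groups, which is given with no test. In wild-type cells the 225 sites within 1 kb of a listed start were occupied at 68.9% to 84.0% and the 1147 distal sites at 51.6% to 64.4%, so start sites were the higher class in each wild-type library. In GATA2-low empty-vector cells the order was the other way round in each library, with 12.4% to 32.9% at starts and 20.8% to 36.01% at distal sites. HA-GATA2 cells had 48% to 71.1% at starts and 60.9% to 88.7% at distal sites with anti-GATA2, and 10.2% to 41.3% against 21.1% to 51.4% with anti-HA, again with distal sites higher in each library. For HA-GATA2(T354M) with anti-GATA2 the values were 17.3% to 51.1% at starts and 31.0% to 54.9% at distal sites. There the order varied by library, with start sites higher in replicates 1 and 3 and distal sites higher in replicates 2 and 4. Start sites in wild-type clusters held weaker peaks, with a median percentile of 40.1 to 44.0 against 61.5 to 63.6 for distal ones. Of 212 start sites with a peak in either empty-vector group, 49 (23.1%) were present in all 4 wild-type libraries and no GATA2-low one, against 102 of 848 distal sites (12%), beside 13.7% of all sites. The same order was present at single sites, where the mean share at starts and at distal sites was 65.3% and 47.1% in wild-type, 9.99% and 16.3% in GATA2-low empty-vector and 41.0% and 75.2% in HA-GATA2 anti-GATA2 libraries.

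**Figure D3:**
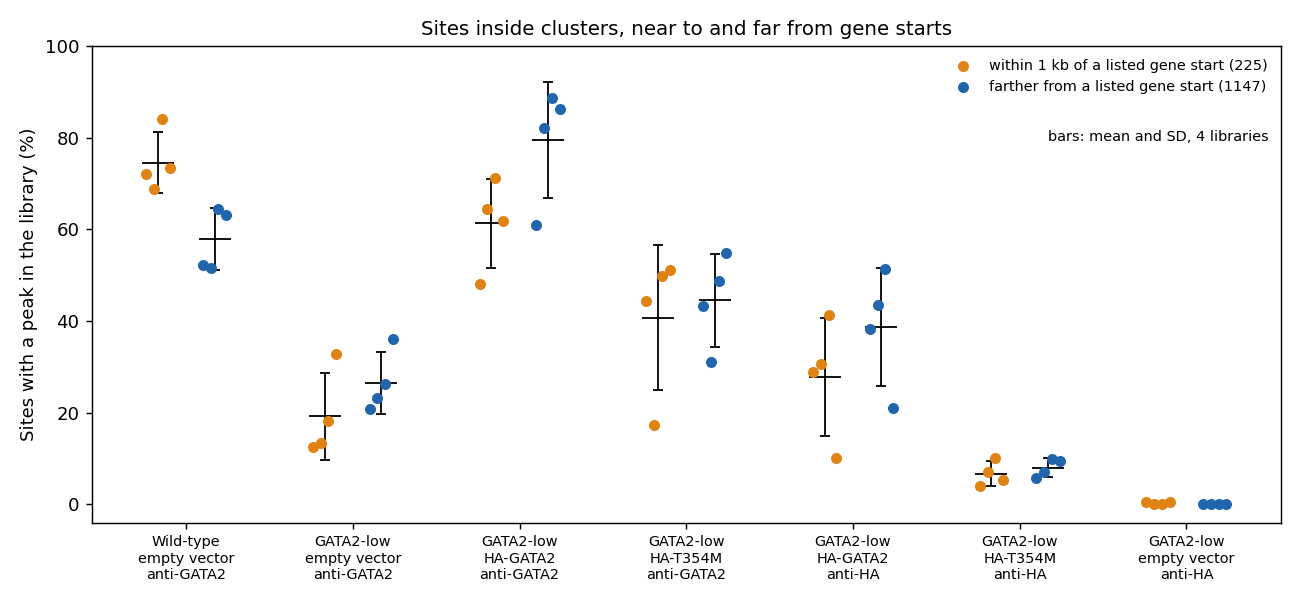
Share of cluster sites with a peak in each library (vertical axis, percent) by group (horizontal axis), for sites within 1 kb of a listed gene start (orange) and farther away (blue), with 1 point per library and bars for the mean and SD of 4 libraries. Orange lies above blue in the wild-type libraries. It lies below blue in the GATA2-low empty-vector anti-GATA2 libraries and in the HA-GATA2 libraries of both antibodies.

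Of 19970 protein-coding genes, 434 (2.17%) had a cluster in the body or within 10 kb. Genes of 11 lists were looked up in the same way. Among 43 haematopoietic transcription factors and GATA2 partners, 13 had a cluster (30.2%), namely ZFPM1, FOXO3, CEBPE, GFI1B, GATA2, GATA1, MYB, ZFPM2, IKZF1, LMO2, NFE2, TAL1 and KLF1. At least 1 kept site lay within the same distance of 76.7% of these 43 genes and of 35.9% of all protein-coding genes. Among genes with such a site, 39.4% and 6.05% had a cluster. Among 63 replication-dependent histone genes 41 had one (65.1%), but these genes lie side by side and the 41 share 6 clusters. Of 27 globin and heme synthesis genes 4 had one, among them ALAD, CPOX and HBE1. Of 37 genes of the red cell membrane, blood groups and iron uptake 4 had one (GYPB, GYPC, CA1 and SLC2A1), although 36 of those 37 had at least 1 kept site.

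Of 26 mast cell, basophil and eosinophil genes 4 had a cluster (15.4%, beside 14.8% for globin and heme synthesis and 10.8% for the red cell list), namely ENPP3, PRG2, TPSG1 and TPSB2, and the tryptase genes TPSG1 and TPSB2 share a cluster. Of 35 cytokine receptor and signalling genes PIM1 had one and of 26 neutrophil and monocyte genes LTF, next to which the cluster lies without overlap. No cluster lay at any of 26 megakaryocyte and platelet, 25 lymphocyte, 26 unrelated-tissue and 23 housekeeping genes. The lists are short, and a count of 0 in them is a description.

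The clusters at transcription factor genes held 87 sites in 15 clusters, of which 20.7% lay near starts. A peak was present at 63.8% ± 8.42 (SD, n = 4) of them in wild-type, 33.3% ± 7.74 in GATA2-low empty-vector, 79.6% ± 10.2 in HA-GATA2 and 52.0% ± 10.7 in HA-GATA2(T354M) cells with anti-GATA2. With anti-HA the shares were 44.3% ± 13.8 for HA-GATA2 and 14.4% ± 2.39 for HA-GATA2(T354M). The 252 clusters at no listed gene gave 59.5%, 24.8%, 77.0%, 43.3%, 36.2% and 7.198% in the same order of groups. The means of the transcription factor clusters were the higher ones, with no test, but not in every library: they were lower in wild-type replicate 1 (51.7% against 54.7%) and in HA-GATA2 anti-GATA2 replicate 3 (86.2% against 86.5%), and the wild-type means differed by less than their SD.

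**Figure D4:**
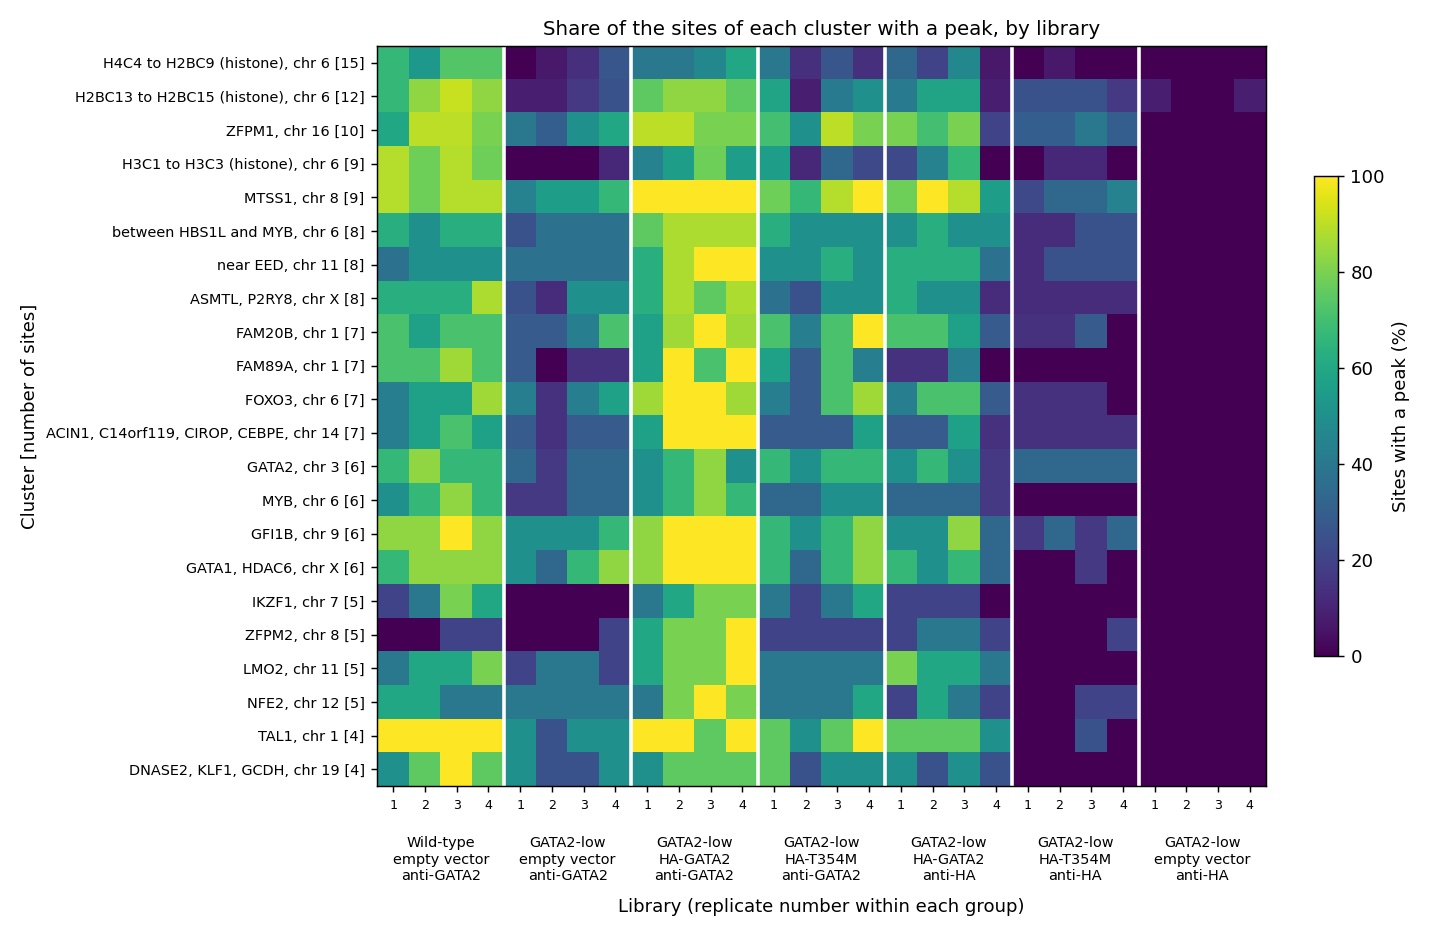
Share of the sites of each cluster with a peak (colour, percent) for 22 clusters (rows, with the number of sites in brackets) in each of the 28 libraries (columns, grouped, with the replicate number below). The histone clusters are bright in the wild-type and dark in the GATA2-low empty-vector libraries, while the MTSS1, ZFPM1, GATA1 and GFI1B clusters keep part of their sites there.

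ZFPM1 encodes FOG1, the cofactor through which GATA factors act at many of their genes. Its cluster at chr16:88452692-88478263 held 10 sites. Of these, 6, 9, 9 and 8 had a peak in the wild-type libraries and 4, 3, 5 and 6 in the GATA2-low empty-vector ones. With HA-GATA2 the counts were 9, 9, 8 and 8 with anti-GATA2 and 8, 7, 8 and 2 with anti-HA, and with HA-GATA2(T354M) they were 7, 5, 9 and 8 and then 3, 3, 4 and 3. The 10 sites were not alike. That at chr16:88454468-88457176, the widest at 2709 bp, had a peak in all 24 libraries other than the empty-vector anti-HA ones. By anti-GATA2, the site at chr16:88461141-88462573 had one in 4 wild-type, 0 GATA2-low empty-vector, 4 HA-GATA2 and 3 T354M libraries. T354M anti-HA peaks stood in 4 of 4 libraries at 3 of the 10 sites, where 3 or 4 GATA2-low empty-vector libraries also had one by anti-GATA2.

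FOXO3 and CEBPE follow with 7 sites, and GFI1B, GATA2, GATA1 and MYB tie with 6, of which GFI1B has the most sites in its body and within 10 kb. FOXO3, a factor that also acts in red cell maturation, had 7 sites with 3, 4, 4 and 6 occupied in wild-type and 3, 1, 3 and 4 in GATA2-low empty-vector libraries. CEBPE, a granulocyte factor, shares its 7 sites with ACIN1, C14orf119 and CIROP, and 4, 7, 7 and 7 of them were occupied with HA-GATA2 against 3, 4, 5 and 4 in wild-type cells. GFI1B, a repressor needed for red cells and platelets, had 6 sites at chr9:132977791-133005233, with 5, 5, 6 and 5 occupied in wild-type and 3, 3, 3 and 4 in GATA2-low empty-vector libraries. Its sites at chr9:132984070-132985299, chr9:132998749-132999924 and chr9:133003700-133005233 kept a peak in 4 of 4 libraries of both empty-vector groups.

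The other 9 transcription factor genes were chosen after seeing their values. GATA2 itself had 6 sites at chr3:128482702-128498034, where 4, 5, 4 and 4 were occupied in wild-type and 2, 1, 2 and 2 in GATA2-low empty-vector libraries. The site at chr3:128495069-128496370, outside the gene body, had a peak in each of the 24 libraries other than the empty-vector anti-HA ones. The site at chr3:128485735-128487032, inside the gene, had a peak in 1 wild-type library and in no GATA2-low empty-vector one, against 4 of 4 with HA-GATA2 and 4 of 4 with T354M by anti-GATA2 and 3 of 4 and 4 of 4 by anti-HA. The site near a listed start at chr3:128487462-128488441 ran the other way, with 4 wild-type, 1 HA-GATA2 and 3 T354M anti-GATA2 libraries and no anti-HA peak. Sites of this cluster thus differed in which groups had a peak. Cells given HA-GATA2 or HA-GATA2(T354M) also carry GATA2 sequence in the vector. Whether reads from it were placed at sites inside the gene was not tested.

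GATA1 and HDAC6 share a cluster of 6 sites at chrX:48782525-48802478. GATA1 is the GATA factor that replaces GATA2 as red cells mature. Of its 6 sites, 4, 5, 5 and 5 were occupied in wild-type and 3, 2, 4 and 5 in GATA2-low empty-vector libraries, so these groups overlapped. The site at chrX:48787708-48788425 had no peak in either empty-vector group or with T354M, and a peak in 4 of 4 HA-GATA2 libraries with anti-GATA2 and 4 of 4 with anti-HA. TAL1, a partner of GATA factors in a shared complex with LMO2, had 4 sites at chr1:47213179-47239938 that were all occupied in all 4 wild-type libraries, against 2, 1, 2 and 2 in the GATA2-low empty-vector ones. LMO2 had 5 sites, with 2, 3, 3 and 4 against 1, 2, 2 and 1.

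MYB, a factor that keeps progenitors dividing, had 2 clusters in reach. The cluster at the gene, chr6:135173622-135195822, had 6 sites with 3, 4, 5 and 4 occupied in wild-type and 1, 1, 2 and 2 in GATA2-low empty-vector libraries. A second one, of 8 sites at chr6:135089329-135129056, lies between HBS1L, 34507 bp away, and MYB, 52252 bp away, in the interval known for enhancers of MYB and for variants linked to fetal hemoglobin. There 5, 4, 5 and 5 sites were occupied in wild-type, 2, 3, 3 and 3 in GATA2-low empty-vector, 6, 7, 7 and 7 in HA-GATA2 and 5, 4, 4 and 4 in T354M anti-GATA2 libraries. Its site at chr6:135109852-135110922 had a peak in all 24 libraries other than the empty-vector anti-HA ones. Its site at chr6:135121429-135122121 had none in either empty-vector group and one in 4 of 4 HA-GATA2 and 4 of 4 T354M libraries with anti-GATA2, with 4 of 4 and 2 of 4 by anti-HA.

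IKZF1 and ZFPM2 were empty or nearly so in the GATA2-low empty-vector libraries. IKZF1, which encodes Ikaros, had 5 sites with 1, 2, 4 and 3 occupied in wild-type libraries and none in any GATA2-low empty-vector one. ZFPM2, which encodes FOG2, a relative of FOG1 best known from heart and gonad, had 5 sites with 0, 0, 1 and 1 occupied in wild-type, 0, 0, 0 and 1 in GATA2-low empty-vector and 3, 4, 4 and 5 in HA-GATA2 anti-GATA2 libraries. Its sites at chr8:105579416-105579879 and chr8:105584553-105585056 had a peak in HA-GATA2 anti-GATA2 libraries only, so the cluster met the rule through the group where it is high. NFE2 and KLF1, factors of globin and red cell genes, had 5 and 4 sites, with 2 to 3 and 2 to 4 occupied in wild-type and 2 and 1 to 2 in GATA2-low empty-vector libraries.

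**Figure D5:**
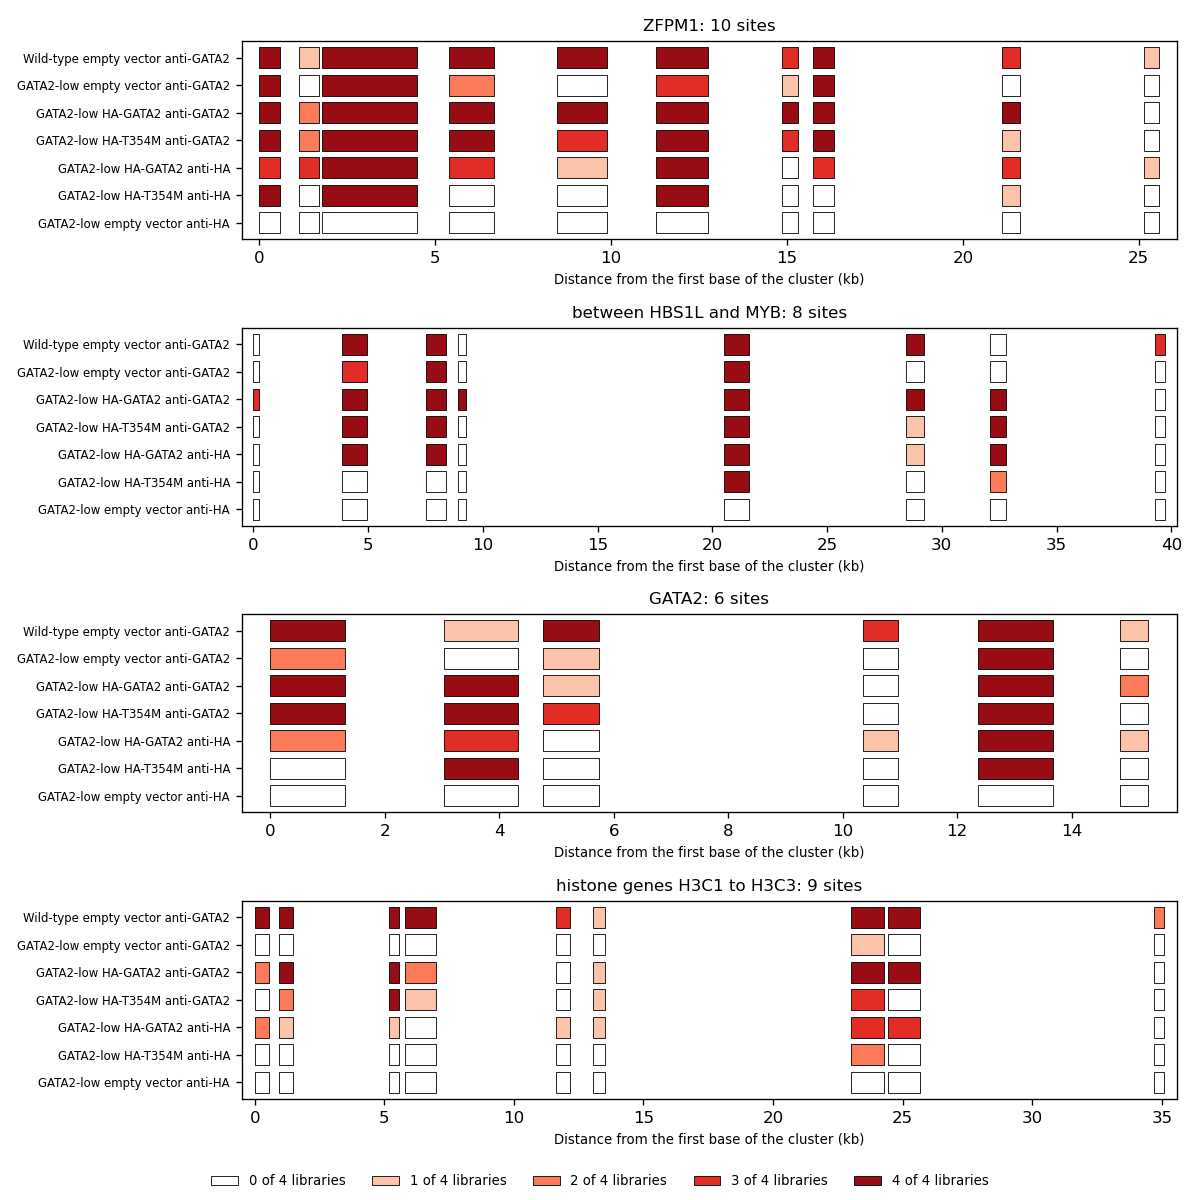
Sites of 4 clusters drawn to scale as boxes along the distance from the first base of the cluster (horizontal axis, kb), with 1 row per group and darker red for more of the 4 libraries with a peak. Several ZFPM1 and MYB-upstream sites and the GATA2 site at chr3:128495069-128496370 are filled in 4 of 4 libraries of nearly every group. The 9 sites of the H3C1 to H3C3 histone cluster are almost all empty in the GATA2-low empty-vector rows.

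The replication-dependent histone genes gave the clusters with the most sites. These genes, most of them in a few stretches of chromosome 6, are transcribed in S phase to package new DNA, and their copies are near-identical in places, so reads may be shared among them. Their 6 clusters held 50 sites, 70% of them near a start. A peak was present at 76%, 74%, 84% and 74% of these sites in wild-type libraries and at 8%, 10%, 16% and 28% in GATA2-low empty-vector ones, so the groups did not overlap. At the 225 start sites of all clusters these groups did not overlap either, with means of 74.6% ± 6.57 and 19.2% ± 9.46 (SD, n = 4). With HA-GATA2 they were 54%, 60%, 68% and 62% by anti-GATA2, each below each wild-type value, whereas over all clusters 3 of the 4 HA-GATA2 values were above them. At the start sites of all clusters, the class that most histone sites belong to, the HA-GATA2 mean was 61.3% against 74.6% in wild-type, and 3 of the 4 HA-GATA2 values lay below every wild-type one. At the histone clusters these means were 61% and 77%.

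The 15-site cluster, chr6:26188363-26251979, runs from H4C4 to H2BC9. Of its sites, 10, 8, 11 and 11 were occupied in wild-type, 0, 1, 2 and 4 in GATA2-low empty-vector, 6, 6, 7 and 9 in HA-GATA2 and 6, 2, 4 and 2 in T354M anti-GATA2 libraries. The 9-site cluster, chr6:26020350-26055418, which includes H2BC3 with its 1 motif printed above, had 8, 7, 8 and 7 in wild-type and 0, 0, 0 and 1 in GATA2-low empty-vector libraries. In the 12-site cluster, chr6:27792165-27838996, counts were 8, 10, 11 and 10 against 1, 1, 2 and 3. Its outer site at chr6:27836658-27838996, over H2AC15 and H2BC15, had a peak in 24 libraries although the printed window holds none of the searched motifs. Its site at chr6:27814570-27815483 was the cluster site with a peak in 2 empty-vector anti-HA libraries, in cells with no tag. It also had a peak in 4 of 4 T354M anti-HA libraries and, by anti-GATA2, in all wild-type and no GATA2-low empty-vector ones, so anti-HA peaks there cannot be told apart from untagged signal.

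Globin and heme synthesis genes had 18 sites in 4 clusters, occupied at 79.2% ± 13.9 (SD, n = 4) in wild-type and 41.7% ± 9.62 in GATA2-low empty-vector libraries. CPOX, an enzyme of the heme pathway, had 4 sites at chr3:98574083-98594133 that were all occupied in all 4 wild-type libraries, against 3, 2, 3 and 3 in GATA2-low empty-vector ones. Its start site, whose window with 2 motifs is printed above, kept a peak in 4 of 4 libraries of each anti-GATA2 group. Near HBE1, the embryonic beta-like globin gene, 4 sites at chr11:5275675-5288570, in the stretch that holds the beta-globin locus control region, were all occupied in the wild-type libraries and in 1, 2, 3 and 4 cases in the GATA2-low empty-vector ones. ALAD, the second enzyme of heme synthesis, had 5 sites with 3, 1, 4 and 2 occupied in wild-type libraries and none in any GATA2-low empty-vector one.

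Red cell membrane genes gave 20 sites in 4 clusters, at 51.3% ± 10.3 (SD, n = 4) in wild-type and 35.0% ± 9.13 in GATA2-low empty-vector libraries. GYPB, which encodes glycophorin B and has close copies in the genome between which reads may be shared, had 7 sites at chr4:144000309-144021757, of which 3, 3, 4 and 3 were occupied in wild-type, 1, 3, 1 and 2 in GATA2-low empty-vector and 3, 7, 7 and 5 in HA-GATA2 anti-GATA2 libraries. Its start site, with the printed motif, had a peak in 4 of 4 libraries of each of the 4 anti-GATA2 groups and of the HA-GATA2 anti-HA group and in 0 of 4 T354M anti-HA ones. GYPC, which encodes glycophorin C, had 5 sites with 2, 2, 3 and 3 in wild-type and 2 in each GATA2-low empty-vector library. CA1, a carbonic anhydrase of red cells, had 3 of 4 sites occupied in each wild-type library and 2, 3, 2 and 3 in the GATA2-low empty-vector ones. SLC2A1, the glucose transporter, had 0, 2, 3 and 1 of 4 against 0, 0, 1 and 2. At all 4 genes the empty-vector groups overlapped.

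PIM1, a kinase induced by cytokine receptors, had 6 sites that were all occupied in all 4 wild-type and all 4 HA-GATA2 anti-GATA2 libraries, against 1, 1, 2 and 4 in GATA2-low empty-vector ones. At the mast cell lists' clusters, ENPP3 had 2, 3, 2 and 4 of 5 sites in wild-type and 1 in each GATA2-low empty-vector library. The cluster near PRG2, an eosinophil granule gene, had 1, 1, 1 and 2 of 4 against 0, 0, 0 and 1. The cluster near LTF, the lactoferrin gene, had 3, 3, 4 and 4 of 4 sites against 1, 2, 2 and 3, and all 4 in each HA-GATA2 and T354M anti-GATA2 library.

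The remaining clusters with the most sites were mostly at genes outside the lists. MTSS1, which encodes a protein that binds actin and membranes, had 9 sites at chr8:124629568-124660848. Of these, 8, 7, 8 and 8 were occupied in wild-type, 4, 5, 5 and 6 in GATA2-low empty-vector and 9 in each HA-GATA2 anti-GATA2 library, with 2, 3, 3 and 4 in the T354M anti-HA ones. The 8 sites at chr11:86143717-86176747 lie between PICALM and EED, 73857 bp and 68006 bp away. There 3 sites had a peak in 4 of 4 libraries of each anti-GATA2 group, and 4 had none in either empty-vector group and were present in 2 to 4 HA-GATA2 anti-GATA2 libraries. ASMTL and P2RY8 shared 8 sites, with 5, 5, 5 and 7 occupied in wild-type and 2, 1, 4 and 4 in GATA2-low empty-vector libraries. FAM20B and FAM89A, the first by position of 16 clusters with 7 sites, had 5, 4, 5 and 5 occupied against 2, 2, 3 and 5, and 5, 5, 6 and 5 against 2, 0, 1 and 1.

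Single clusters differed most between wild-type and GATA2-low empty-vector cells on chromosomes 19 and 10. The cluster at ISOC2, C19orf85 and ZNF628 had 4, 4, 4 and 3 of 4 sites against 0, 0, 0 and 1, a difference of 87.5 percentage points in the mean share. The 6 sites at MBOAT7, TSEN34 and RPS9 (chr19:54188220-54211404) had 6, 5, 6 and 6 against 0, 2, 0 and 1, and the 4 near DNAJB12 had 4, 4, 4 and 2 against 0, 0, 0 and 1. Only wild-type libraries had a peak at chr10:72309698-72310113 near DNAJB12, so that cluster met the rule through the group where it is high. With HA-GATA2 the MBOAT7 cluster had 1, 4, 4 and 3 sites by anti-GATA2, so it stayed below the wild-type counts. Only the cluster near ASS1 had a higher mean share in the GATA2-low empty-vector group, 43.8% against 37.5%, with 1, 1, 2 and 3 against 1, 1, 2 and 2 of 4 sites, which overlap.

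For HA-GATA2 over empty vector in GATA2-low cells, the clusters that differed most were near GLUL and at EEIG2 and TNFAIP3. The 4 sites near GLUL had 3, 4, 4 and 4 against 0 in each empty-vector library, and wild-type cells held only 0, 0, 1 and 1. EEIG2 had 4, 5, 5 and 4 of 5 sites against 0. Only HA-GATA2 anti-GATA2 libraries had a peak at chr1:182329203-182329741 near GLUL. The same held at chr1:108551467-108551747 and chr1:108563939-108564219 in the EEIG2 cluster. Both clusters thus met the rule through the group where they are high. TNFAIP3, an inhibitor of NF-kappaB signalling, had all 5 sites in each HA-GATA2 library against 0, 0, 0 and 2, and 3, 3, 3 and 5 with T354M, which put it among the largest differences of T354M over empty vector as well. TANC1, with 5, 4, 5 and 5 of 5 sites against 0, 2, 2 and 3, and GCSAML, with 5, 4, 4 and 4 of 6 against 1, 0, 1 and 1, completed that set. In the other direction, F11R had 1, 1, 2 and 1 of 4 sites with empty vector against 0, 0, 1 and 1 with T354M, the cluster near ASS1 1, 1, 2 and 3 against 1 each and the cluster at PPT2, EGFL8 and AGPAT1 0, 1, 0 and 1 against 0. These groups overlapped at each of the 3 clusters.

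Comparing HA-GATA2 with HA-GATA2(T354M) by anti-GATA2, the cluster near CCNL1 at chr3:157109422-157128520 had 3, 4, 4 and 3 of 4 sites with HA-GATA2 and none in any T354M library. It had 1 peak in the wild-type and 1 in the GATA2-low empty-vector group, at the same site. It had no anti-HA peak in any library, so its peaks appear with the anti-GATA2 antibody only. Its other sites had a peak in HA-GATA2 anti-GATA2 libraries only, so the cluster met the rule through the group where it is high. A cluster at chr2:145748943-145752668 followed, with 3, 4, 4 and 4 of 4 sites against 0, 0, 1 and 1. Its nearest protein-coding gene, ZEB2, lies 1228824 bp away. Only HA-GATA2 cells had a peak at its site chr2:145750883-145751470, so this cluster met the rule through the cells where it is high. The cluster at FKBP15 and SLC31A1 followed as well, with 2, 4, 4 and 4 against 0, 0, 0 and 1. The sites at chr9:113236977-113237254 and chr9:113240924-113241193 of the FKBP15 cluster also had a peak in HA-GATA2 anti-GATA2 libraries only. By anti-HA, DNAAF10 had 3 of 4 sites in each HA-GATA2 library, TRMT11 3, 3, 3 and 2 and ARHGEF12 3, 3, 3 and 2, against none in any T354M library. Only HA-GATA2 cells had a peak at chr2:68126602-68126836 in the DNAAF10 cluster. The same held at chr6:126103698-126104419 and chr6:126118125-126118512 in the TRMT11 cluster. The DNAAF10 and TRMT11 clusters thus met the rule through the cells where they are high.

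The reverse, more sites with T354M than with HA-GATA2, was largest at CACNA1H. This gene, which encodes a T-type calcium channel, had a cluster of 4 sites at chr16:1190418-1199290 with no anti-GATA2 peak in any wild-type, GATA2-low empty-vector or HA-GATA2 library. With T354M, 3, 1, 3 and 0 of its sites had a peak by anti-GATA2 and 1, 2, 3 and 2 by anti-HA, against 1, 0, 1 and 0 by anti-HA with HA-GATA2. Except at chr16:1192045-1193582, its sites had a peak in T354M libraries only, so this cluster met the rule through the cells where it is high. By anti-HA it was the only cluster of the 286 with a higher mean share for T354M, and by anti-GATA2 there were 9. The neighbouring cluster at CACNA1H and TPSG1 had 2, 0, 1 and 1 of 4 sites with T354M and 0, 0, 1 and 0 with HA-GATA2. Its site at chr16:1213209-1213481 had a peak in T354M libraries only. The 4 sites at chr11:65418852-65427643, over the long non-coding RNA NEAT1 and 5327 bp from FRMD8, had 3, 1, 2 and 3 against 2, 2, 1 and 1 by anti-GATA2. There the groups overlapped, and the site at chr11:65426127-65427643 had a peak in 4 of 4 libraries of both anti-HA groups.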

How the data were processed

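The data were peak lists of 28 CUT&Tag libraries. The submitters' processing notes name hg38, the peak caller MACS2 2.2.7.1, the aligner Bowtie2 2.2.5, cutadapt 3.3 for adapters, FastQC, and deepTools 3.5.3. How each was set is not given in the sources used here. Each library has a deposited narrowPeak list of its own. The deposited fold enrichment is a linear ratio at the summit, the deposited p and q are −log10 values with a lowest −log10 q of 6.00, and the deposited score is made from the −log10 q. These values are the authors' and served to rank, filter and recover fragments within a list.

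Of 120964 peaks, 455 lying off chromosomes 1 to 22 and X were left out. Sites, chains and clusters were built in Python 3.11.15 with numpy 2.4.6, pandas 2.3.3 and scipy 1.17.1, and figures with matplotlib 3.10.9. The cluster members, gene lists and tests were chosen with earlier results of these data known. Genes and promoters came from RefSeq (GRCh38.p14), which lists starts for 15811 of 19970 protein-coding genes, and coordinates are 1-based on hg38. No genome sequence beyond those promoter windows was used here.

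The 5 comparisons of 4 against 4 libraries were tested by exact two-sided permutation (70 splits) on clusters rebuilt from the other 20 libraries, with Benjamini-Hochberg adjustment over the 5, on the percent of cluster sites with a peak and the log2 ratio of that percent to the percent of single sites. The chaining and the permutation were tested on simulated peaks and values. Ties in the number of sites were broken by position for clusters and by all sites in reach for genes. Clusters named in the text are the 10 with the most sites, up to 3 per direction and comparison with the largest difference, and up to 4 genes per list by sites in the cluster. Some of those picked for a large difference met the rule for clusters through the group where they are high. Alternatives changed the gap, the library and site minimum, the −log10 q, the peak width, the list length, the libraries left out and the pairing by replicate number. Precision is limited by the number of peaks kept per list, which ran from 426 to 12171 outside the empty-vector anti-HA group and from 1 to 6 in it. The cluster at 1 further listed gene is not reported here by name.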

Additional observations from a re-analysis of the deposited data

Results flagged for a closer look

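Dixon's gap test was applied 54 times, to several measures in the same groups of 4 libraries, and 3 libraries were flagged. Chance flags about 1 in 20 such tests, so the flags may be due to chance. Chaining the peaks of a library on its own gave 15 clusters in replicate 4 of the GATA2-low empty-vector anti-GATA2 libraries against 3, 1 and 3 in replicates 1 to 3, and its list was the longest of the 4 with 3648 peaks. The same count was 1 in replicate 3 of the HA-GATA2(T354M) anti-HA libraries and 0 in the others, a pattern that the test flags at any count above 0. In replicate 1 of the HA-GATA2 anti-GATA2 libraries, 47.2% of the single sites had a peak against 75.2%, 80.1% and 75.2% in the others, and its list was the shortest of the 4 with 7064 peaks. In wild-type cells the clusters found within a library alone numbered 67, 76, 125 and 113.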

How the results depend on the processing

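The number of clusters (main value 286, of 1372 sites) was 100 (442 sites) with a gap of 5 kb, 530 (2789) with 25 kb, 148 (690) with sites in at least 4 libraries, 777 (2845) with chains of at least 3 sites, 57 (389) with at least 6 and 152 (694) with a −log10 q of at least 15. Leaving out 1 library gave 254 to 286 clusters with 1207 to 1372 sites.

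The 4 occupancy comparisons other than HA-GATA2 against T354M by anti-GATA2 kept their direction and their side of the threshold with clusters from all 28 libraries and under the gap, minimum, −log10 q and peak-width alternatives. That comparison passed with clusters from all 28 libraries (32.7 points), gaps of 5 kb (22.3) and 25 kb (23.5), at least 3 sites (24.4), at least 6 (20.3) and a −log10 q of at least 15 (26.6), and its ratio lost the threshold at 5 kb (-0.21), at least 6 sites (-0.30) and a −log10 q of at least 15 (-0.22). Its ratio also lost it with clusters built with no list of the cells compared, chosen after seeing the data (-0.16), and no other call changed there. The cause was not tested.

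With lists of equal length the occupancy differences were -0.73 points (wild-type against empty vector), -2.66 (HA-GATA2 against empty vector), 0.908 (T354M against empty vector), -3.28 (HA-GATA2 against T354M) and 0.0570 (anti-HA). The ratio differences that changed were -0.073 (wild-type), 0.10 (T354M against empty vector) and -0.054 (anti-HA), on the log2 scale. Of the 3 occupancy calls, wild-type changed sign and no longer passed, HA-GATA2 passed with the opposite sign and anti-HA no longer passed, while T354M against empty vector passed it (adjusted p = 0.0476, exact permutation).

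Without 1 library the smallest exact p is 0.0571, so no call could pass. Occupancy differences then ran from 31.8 to 37.5 points for wild-type and 43.6 to 50.04 for HA-GATA2 against empty vector, 15.1 to 23.6 for T354M against empty vector, 15.4 to 25.6 for HA-GATA2 against T354M and 24.95 to 34.95 with anti-HA. The ratio differences ran from -0.36 to -0.29, -0.44 to -0.38, -0.31 to -0.19, -0.29 to -0.20 and -0.87 to -0.72 in the same order.

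Libraries with the same replicate number did not deviate together (not every correlation was over 0.1, range -0.080 to 0.11). With the replicate number as a block, paired sign changes cannot give a p under 0.125, and the differences were 33.9, 45.97, 18.6, 21.8 and 29.2 points, with ratio differences of -0.32, -0.40, -0.24, -0.25 and -0.79 in the same order.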
